A study of Heterocephalus glaber and Mus musculus with 9 samples.

Results

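The genes described here encode the proteins of the cytosolic ribosome. A row of the table was taken when its symbol, ignoring case, began with Rpl or Rps followed by a digit, or was one of Rplp0, Rplp1, Rplp2 and Rpsa. This gave 36 of 12946 rows, 18 of the small (Rps) and 18 of the large (Rpl) subunit. Another 9 rows fit the letters but name S6 kinases or a binding partner and were left out. Of the 36 genes, 31 are on a list of 77 standard ribosomal protein genes and 5 are paralogues of such genes (Rpl3l, Rpl7l1, Rpl22l1, Rpl36al and Rps27l). RNA was sequenced from the spleens of 3 mice (C57Bl/6N males, age 2 months), 3 naked mole-rats with small spleens (ssNM-R, males, ages 30, 26 and 23 months) and 3 with large spleens (lsNM-R, ages 24, 29 and 23 months, of which lsNM-R 4 was female), with 1 library per animal and no treatment or engineered allele. NM-R animals keep the numbers of their labels (ssNM-R 2, 3 and 6, lsNM-R 1, 4 and 5). Values are normalized counts, that is each gene's reads over a size factor of the library. Species, age and reference genome change together between mouse and NM-R and cannot be told apart.

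The ribosome joins a small subunit, which reads the mRNA, to a large subunit, which forms the peptide bond, and each ribosomal protein is present in 1 copy per ribosome except those of the stalk. Their mRNAs are among the most abundant of a growing cell, and in mammals most begin with a run of pyrimidines at the 5′ end through which the mTOR pathway and Larp1 control their translation. Erythroid precursors are known to depend on a full supply of ribosomes: mutations in genes such as Rps19 cause Diamond-Blackfan anaemia. Mammalian genomes also carry many processed pseudogenes of ribosomal protein genes, which are reverse-transcribed copies of the mRNA without introns.

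Summed over the 12946 rows, the libraries held 7815326 to 18387599 reads. Reads outside these rows were not available, and read depth means this sum throughout. The NM-R libraries fell into a lower depth class (ssNM-R 2, ssNM-R 3 and lsNM-R 1, up to 8985705 reads) and a higher one (ssNM-R 6, lsNM-R 4 and lsNM-R 5, from 16883689 reads), and the 3 mice lay between. All 36 genes averaged at least 10 normalized counts over the 9 spleens. The summed level of 8 erythroid markers was 23004 to 64133 in mice but 123948 to 184693 in the small and 121395 to 173149 in the large NM-R spleens. That of 8 B cell markers was 54486 to 55602 in mice but 2699 to 4956 in the small and 3254 to 6917 in the large NM-R spleens, and no marker of either list was at 0 in a whole group. In bulk tissue, fewer cells of a type and less RNA per cell cannot be told apart, and the part of cell composition in the results below was not tested.

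Ribosomal protein genes took between 2.31 and 3.04% of a library's counts over all rows, and mice and NM-Rs overlapped. The share was 2.31, 2.60 and 2.82% in mice 1, 2 and 3, against 3.04, 2.84 and 2.93% in ssNM-R 2, 3 and 6 and 2.79, 2.48 and 2.38% in lsNM-R 1, 4 and 5. The mean was 2.57% ± 0.256 (SD, n = 3) in mice and 2.74% ± 0.258 (SD, n = 6) in NM-Rs, a ratio of 1.07. Without Rps12, which was nearly absent from the mouse libraries, the means were 2.57% ± 0.256 and 2.54% ± 0.23, a ratio of 0.985. Within mice the spleens kept 1 order, as 35 of the 36 genes were lowest in mouse 1 and 34 were highest in mouse 3. Over all rows with distinct values in the 3 mice, 35.8% were lowest in mouse 1 and 35.7% highest in mouse 3. The 36 genes share these 3 libraries, so they are not independent of each other. Over the 34 genes other than Rps12 and Rpl3l, mouse 3 was 1.12 to 1.56 times mouse 1, with a median of 1.26. The erythroid marker sum followed the same order in mice 1, 2 and 3 (23004, 50875 and 64133), as did the T cell sum (10619, 10998 and 11579). The granulocyte (8081, 7613 and 6379), red pulp macrophage (50845, 44156 and 41963) and stromal (2805, 2366 and 1997) sums had the reverse order, and the B cell sum neither. The part of these cells in the order was not tested.

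**Figure D1:**
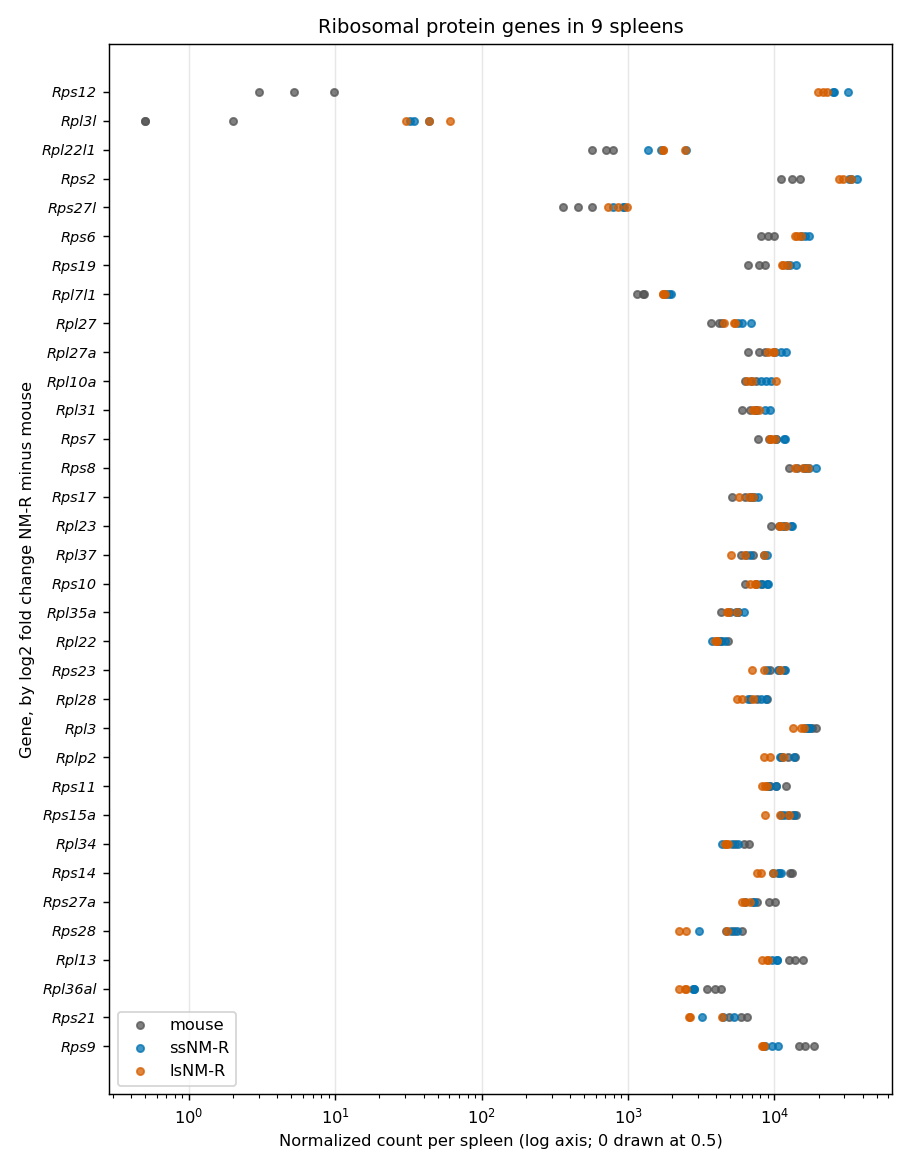
Normalized counts of 34 of the 36 ribosomal protein genes (rows, sorted by NM-R minus mouse) in each of the 9 spleens on a log axis, with 1 point per spleen coloured by group. Rps12 and Rpl3l are close to 0 in mice, and Rpl22l1, Rps27l and Rpl7l1 lie lower than most other genes in all groups.

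Levels of different genes were compared per length, as mouse counts per kilobase of the mouse transcript. The acidic stalk protein gene Rplp2, whose protein helps recruit translation factors and is present in more than 1 copy per ribosome, was highest at 29499.8 ± 3273 counts per kb (SD, n = 3). Rps9 and Rps23, both of the small subunit, followed at 21859 ± 2461 and 21217 ± 2334 and did not differ beyond their spread. The lowest were Rpl3l at 0.488 ± 0.845, Rps12 at 11.6 ± 6.68 and Rpl7l1 at 471 ± 28.3 counts per kb. The 30 standard genes other than Rps12 had group means within 4.44-fold of each other in mice (4077 for Rpl27 to 18099 for Rpl3) and within 8.54-fold in NM-Rs (3753 for Rps21 to 32045 for Rps2), on the scale of normalized counts. The median coefficient of variation between spleens of a group was 11.3% for mice, 7.83% for ssNM-Rs and 8.89% for lsNM-Rs.

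Which ribosomal protein genes differ between the species was asked with limma on log2(normalized count + 1), with adjustment over all 12946 rows. Taking both NM-R cohorts together, 10 of the 36 genes were higher in NM-R (background over all rows 39.7%) and 9 were lower (background 38.8%), while 17 did not pass an adjusted p of 0.05. The median log2 fold change was 0.12, against 0.01 over all rows. The 32 genes with a log2 fold change of less than 1 in size made up 88.9%, against 46.5% of all rows and 59.8% of the 3022 rows that averaged at least 1000 normalized counts, a level that 34 of the 36 genes reached. All 6 NM-R spleens lay above all mice for 10 genes (background 36.4%) and below all mice for 5 (background 36.2%). The split of the calls moved with the scaling. With equal upper quartiles 16 were higher (background 41.9%) and 8 lower (background 36.5%), with a median over all rows of 0.10. With equal totals 10 were higher (background 38.4%) and 12 lower (background 40.2%), with an all-row median of -0.04. With quantile normalization 10 were higher (background 40.7%) and 15 lower (background 37.7%), with an all-row median of 0.06.

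The cohorts were also compared with mice separately, against the same 3 mice. In ssNM-R, 12 genes were higher (background 38%) and 5 lower (background 37.5%), with a median log2 fold change of 0.22. In lsNM-R, 10 were higher (background 38.1%) and 10 lower (background 37%), with a median of -0.004. With equal upper quartiles, equal totals and quantile normalization the splits were 18 and 4, 10 and 6, and 10 and 12 for ssNM-R, and 10 and 9, 9 and 15, and 9 and 16 for lsNM-R. Over all rows the same fits called 36.6 to 40.4% higher and 34.6 to 38.9% lower.

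**Figure D2:**
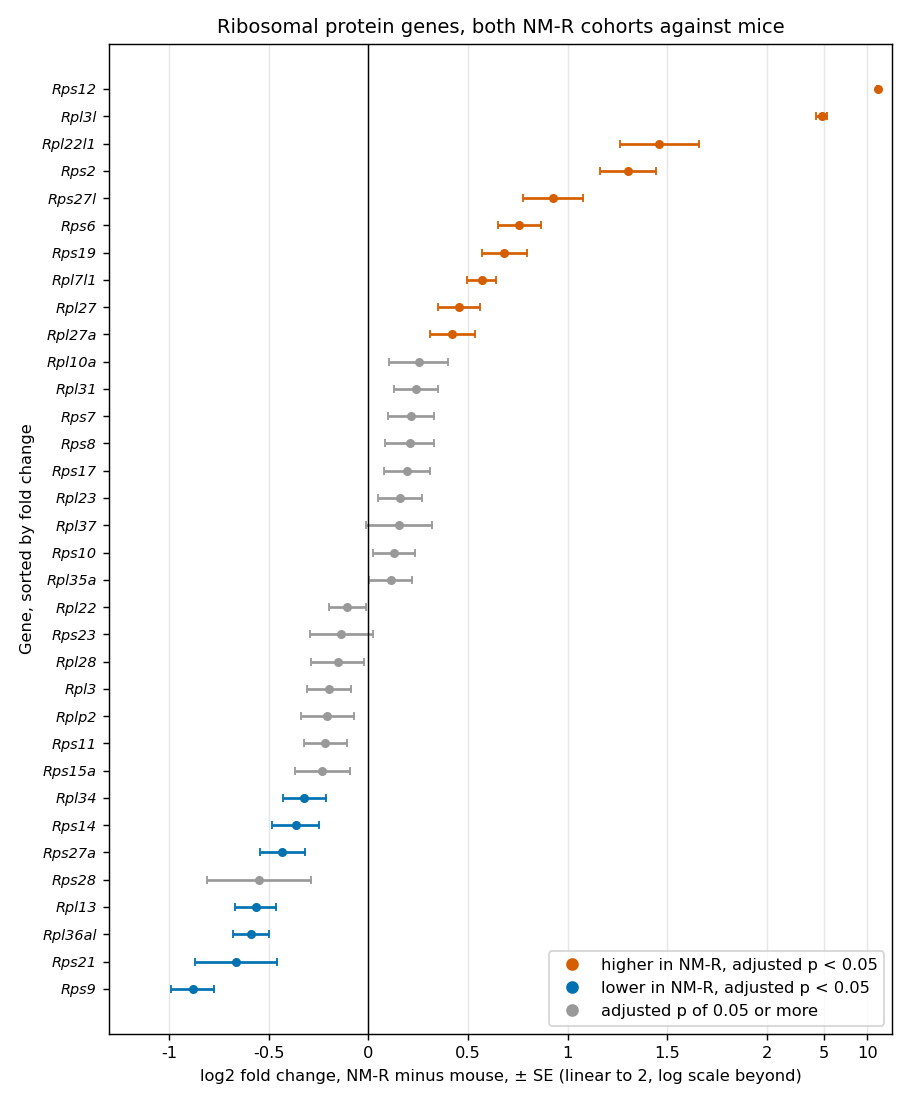
Log2 fold change of 34 of the 36 ribosomal protein genes, mean of both NM-R cohorts minus mouse, with its SE from limma (3 mice, 6 NM-Rs). The axis is linear up to 2 and logarithmic beyond. The 10 genes past the threshold on the right run from 0.42 for Rpl27a to 11.87 for Rps12, and the genes past it on the left from -0.32 for Rpl34 to -0.88 for Rps9.

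Rps12, a protein at the beak of the small subunit, stood apart from all other genes of the set. It had 3.01, 9.78 and 5.24 normalized counts in mice 1, 2 and 3, which rest on 17 reads in all, but 31728, 25404 and 25232 in ssNM-R 2, 3 and 6 and 22942, 21523 and 19939.7 in lsNM-R 1, 4 and 5. The species did not overlap. The mean was 6.01 ± 3.45 (SD, n = 3) in mice and 24461 ± 4139 (SD, n = 6) in NM-R, with a log2 fold change of 11.87 ± 0.248 (SE, limma adjusted p = 3.5e-10). The symbol Rps12 is in the mouse annotation but not in the NM-R RefSeq annotation named further below. Which NM-R gene the row counts was not tested.

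The mouse genome (mm9) was searched for second copies of each transcript, since a read that matches several places can be dropped or assigned elsewhere when reads are counted. The Rps12 gene lies at chr10:23504990-23507015 on the minus strand, and its transcript of 517 bases has 6 exons. Of its 100-base windows, 97.8% occur a second time in mm9 without a mismatch, at 18 places, the highest share among the 36 genes. A single place at chr19:59396780-59397274, annotated as Rps12-ps3 within the span of Pdzd8, holds 94.7% of the windows. Rps6, the small subunit protein that S6 kinases phosphorylate, was nearly as duplicated: 94.4% of its windows have a second copy, and 92.8% occur at chr2:75029090-75029911 in the pseudogene Gm13654. A coding window of 100 bases that crosses a splice junction is shown for each of these genes, read in the sense direction, with the last base of one exon and the first base of the next in capitals.
Rps12: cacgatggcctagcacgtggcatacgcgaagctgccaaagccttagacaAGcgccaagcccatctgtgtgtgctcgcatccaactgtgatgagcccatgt
Rps6: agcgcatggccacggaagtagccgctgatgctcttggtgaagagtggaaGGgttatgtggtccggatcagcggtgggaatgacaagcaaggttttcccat
In its own gene the Rps12 window spans chr10:23505761-23506619, with an intron of 759 bases between the capitals. A copy at chr19:59396942-59397041, 1 of 2 perfect copies, holds the same 100 bases in 1 run. The Rps6 window spans chr4:86502211-86502681 with an intron of 371 bases. An unbroken copy, 1 of 3 perfect copies, is at chr2:75029692-75029791.

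The share of copied windows did not order the mouse levels. Rps6 had 8049.5, 9094 and 9982 normalized counts in mice 1, 2 and 3, far above the Rps12 level. Over the 36 genes the median share of copied windows was 44.7%, 17 genes had at least 50%, and 10 had a copy of every coding window. Spearman's rho between that share and the mouse count per kb was 0.13 (n = 36 genes, which share libraries), and rho with the log2 fold change between species was 0.07, or -0.01 without Rps12. Copies with mismatches were not searched, and the NM-R genome of the files was not used here. What part shared reads had in the low Rps12 count was not tested.

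**Figure D3:**
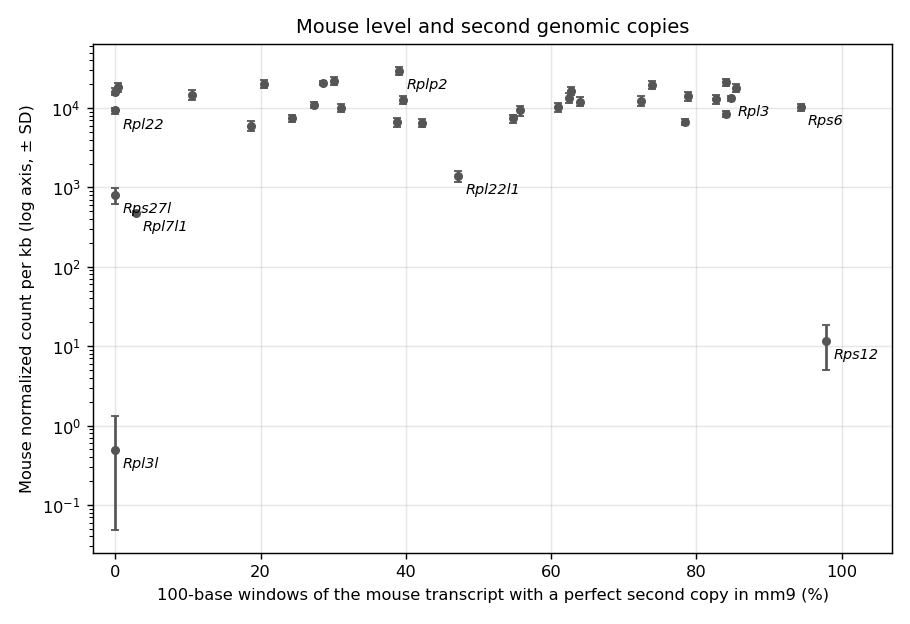
Mean mouse normalized count per kb (log axis, ± SD, n = 3 mice; the lower bar of Rpl3l, whose SD exceeds its mean, is shortened) against the percentage of 100-base windows of the mouse transcript with a perfect second copy in mm9, 1 point per gene. Rps12 lies at 97.8% and 11.6 counts per kb, while Rps6 at 94.4% has 10298 counts per kb.

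Of the other small subunit genes, Rps2, Rps6 and Rps19 rose in NM-R relative to mice. Rps2, whose protein lies near the mRNA entry channel, had 11082, 13150.4 and 14884 normalized counts in mice 1, 2 and 3, against 36555, 33199.7 and 32158 in ssNM-R 2, 3 and 6 and 33361, 29489 and 27508 in lsNM-R 1, 4 and 5. The lowest NM-R spleen was well above the highest mouse, and the mean was 2.46 times the mouse mean (log2 fold change 1.30 ± 0.139, SE, limma adjusted p = 1.23e-05).

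Rps6 had 16269, 15109 and 17193 normalized counts in ssNM-R 2, 3 and 6 and 13837, 15079 and 14164 in lsNM-R 1, 4 and 5, all above the mouse values given above, with a log2 fold change of 0.76 ± 0.108 (SE, limma adjusted p = 0.000101). Rps19, the gene most often mutated in Diamond-Blackfan anaemia, had 6612, 7844 and 8683 in mice 1, 2 and 3, 12746, 12142 and 13967 in ssNM-R 2, 3 and 6 and 12294, 11485 and 11337 in lsNM-R 1, 4 and 5. Again no NM-R spleen reached down to the mice (log2 fold change 0.68 ± 0.112, SE, limma adjusted p = 0.000278). On the list of 19 Diamond-Blackfan genes, 9 have a row. Of these, Rps19 and Rpl27 were higher in NM-R, 0 were lower and 7 did not pass. That is 22.2% called, against 78.5% of all rows (39.7% higher and 38.8% lower).

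Other small subunit genes fell. Rps9, a protein that binds early in small subunit assembly, had 14823, 16188 and 18499 normalized counts in mice 1, 2 and 3, but 9635, 8596 and 10498 in ssNM-R 2, 3 and 6 and 8320.4, 8489 and 8165 in lsNM-R 1, 4 and 5. All NM-Rs lay below all mice, and the log2 fold change was -0.88 ± 0.11 (SE, limma adjusted p = 3.77e-05), with a mouse mean 1.84 times the NM-R mean. Rps27a, which is made as a fusion with ubiquitin, had 7654, 9218 and 10083 in mice 1, 2 and 3, 7135, 6289 and 7286 in ssNM-R 2, 3 and 6 and 6806, 6327 and 5962 in lsNM-R 1, 4 and 5. These groups did not overlap either (log2 fold change -0.43 ± 0.111, SE, limma adjusted p = 0.00498).

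Rps21 and Rps14 were lower with overlap between the species. Rps21, a short protein of the small subunit, had 4869.6, 5933 and 6513 normalized counts in mice 1, 2 and 3, 5287, 4426 and 3202 in ssNM-R 2, 3 and 6 and 4361, 2634 and 2605 in lsNM-R 1, 4 and 5 (log2 fold change -0.66 ± 0.205, SE, limma adjusted p = 0.0132). The calls of Rps21 and Rps14, and of Rpl34 in the large subunit, were lost without mouse 3, and those of Rps14 and Rpl34 also without mouse 2. Without mouse 3, 5 genes were called lower in place of 9. Rps28, the shortest of the set with a coding length of 207 bases, had a log2 fold change of -0.55 ± 0.26 (SE) that did not pass (limma adjusted p = 0.0759). It passed without lsNM-R 1, at a log2 fold change of -0.72 (limma adjusted p = 0.00867).

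In the large subunit, Rpl27 and Rpl27a were the standard genes that rose in NM-R, while Rpl13 and Rpl34 were among those that fell. Rpl27, which has been found mutated in Diamond-Blackfan anaemia, had 3683, 4190.3 and 4359 normalized counts in mice 1, 2 and 3, 6902, 5974 and 5664 in ssNM-R 2, 3 and 6 and 5407, 5259 and 4538 in lsNM-R 1, 4 and 5 (log2 fold change 0.46 ± 0.104, SE, limma adjusted p = 0.00243). The lowest NM-R spleen was just above the highest mouse. Rpl13 had 12474, 13798 and 15548 in mice 1, 2 and 3, 10378, 9574 and 10421 in ssNM-R 2, 3 and 6 and 8987, 8889 and 8203 in lsNM-R 1, 4 and 5. Here all NM-Rs were below all mice (log2 fold change -0.57 ± 0.103, SE, limma adjusted p = 0.000574).

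Rplp2 is the only gene of the stalk with a row. It had 11023, 12458 and 13778 normalized counts in mice 1, 2 and 3, 13571, 10946 and 11241 in ssNM-R 2, 3 and 6 and 11366, 9369.9 and 8522 in lsNM-R 1, 4 and 5, and the groups overlapped (log2 fold change -0.21 ± 0.132, SE, limma adjusted p = 0.176). By subunit, 5 of 18 small subunit genes were higher and 5 lower, and 5 of 18 large subunit genes were higher and 4 lower (background over all rows 39.7% higher and 38.8% lower).

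The 5 paralogues all passed the test, as did 78.5% of all rows, with 4 higher and 1 lower in NM-R. Rpl3l, known as the form of Rpl3 made in heart and skeletal muscle, had 2.01 normalized counts in mouse 1 and 0 in mice 2 and 3, which is at or under the floor of 3 reads per library, against 30.3 to 60.7 in the 6 NM-Rs. Its NM-R mean of 40.8 ± 11.3 (SD, n = 6) was at least 13-fold higher than that floor. It was a minor form in either species: its parent Rpl3, which lies near the peptidyl transferase centre, had 13335 to 17397 in NM-R and 16847 to 19345 in mice (log2 fold change -0.20 ± 0.111, SE, limma adjusted p = 0.129).

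Rpl22l1, which can take the place of Rpl22 in the ribosome, had 568, 702 and 783 normalized counts in mice 1, 2 and 3, 1675, 1368 and 2504 in ssNM-R 2, 3 and 6 and 1740.1, 1736 and 2457 in lsNM-R 1, 4 and 5. NM-R spleens were all higher, with a mean 2.8 times that of mice (log2 fold change 1.46 ± 0.197, SE, limma adjusted p = 6.81e-05). Rpl22 itself had 4082, 4324 and 4841 in mice 1, 2 and 3 and 3749 to 4586 in NM-Rs, and the species overlapped (log2 fold change -0.11 ± 0.0932, SE, limma adjusted p = 0.313). The 2 transcripts differ in duplication too, with 47.2% copied windows in Rpl22l1 and 0% in Rpl22.

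Rps27l, a paralogue of Rps27 known as a target of p53, had 361, 458 and 564 normalized counts in mice 1, 2 and 3, 938, 788 and 925 in ssNM-R 2, 3 and 6 and 725, 849.7 and 986 in lsNM-R 1, 4 and 5 (log2 fold change 0.93 ± 0.15, SE, limma adjusted p = 0.000247). Rpl7l1, a relative of Rpl7, had 1144 to 1279 in mice and 1729 to 1965 in NM-Rs (log2 fold change 0.57 ± 0.0729, SE, limma adjusted p = 4.74e-05). In both genes every NM-R exceeded every mouse. Rpl36al, a paralogue of Rpl36a, went the other way, with 3434, 3906 and 4342 in mice 1, 2 and 3, 2802, 2810.4 and 2769 in ssNM-R 2, 3 and 6 and 2436, 2473 and 2219 in lsNM-R 1, 4 and 5 (log2 fold change -0.59 ± 0.0895, SE, limma adjusted p = 0.000158). The parents Rps27, Rpl7 and Rpl36a have no row, so no comparison with them was possible.

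The 36 genes are not the whole ribosome. Of the 77 standard genes, 31 have a row, 17 of 31 in the small and 14 of 46 in the large subunit. The 46 without a row are, for the small subunit, Rpsa, Rps3, Rps3a, Rps4x, Rps13, Rps15, Rps16, Rps18, Rps20, Rps24, Rps25, Rps26, Rps27 and Rps29. For the large subunit they are the stalk genes Rplp0 and Rplp1, Rpl5 and Rpl11, whose proteins bind Mdm2 when ribosome assembly is disturbed, and Rpl4, Rpl6, Rpl7, Rpl7a, Rpl8, Rpl9, Rpl10, Rpl12, Rpl13a, Rpl14, Rpl15, Rpl17, Rpl18, Rpl19, Rpl21, Rpl23a, Rpl24, Rpl26, Rpl29, Rpl30, Rpl32, Rpl35, Rpl36, Rpl36a, Rpl37a, Rpl38, Rpl39 and Rpl41. All but Rpl41 have their symbol both in the mouse annotation and in an NM-R RefSeq annotation (assembly H.glaber_assembly_v1.0, used for names only). The 45 of these genes with a mouse transcript had a median of 48.2% copied windows, against 44.7% for the genes with a row. The longest coding transcript, used here, may not be the usual ribosomal mRNA. That of Rpl24 has 11 exons and 3150 coding bases (0% copied). That of Rpl13a has 13 exons and 1269 coding bases (1.02% copied), and 58.0% of its bases overlap exons of Flt3l. With 46 genes without a row, counts over the whole ribosome are not analysed here.

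Whether the mouse transcripts begin with a pyrimidine run was read from the mm9 annotation, as a C followed by at least 4 letters C or T that starts within 5 bases of the annotated start of the transcript used, on the sense strand. Such a run was found in 13 of the 36 genes, or 36.1%, and in 17.8% of the 10373 rows with a mouse coding transcript. Starts are shown for Rps19, Rps2 and Rps27a, which differed between the species, and for Rpl22 beside its paralogue Rpl22l1 and for Rpl3l. Each run of 30 bases begins 10 bases before the annotated start, and the capitals mark the match whose first C lies nearest to that start, up to the end of its run. Pyrimidines just before that C stay in lower case.
Rps19: cgtcgttccCTTTCCCCTggctggcagcgc
Rps2: tttcctttttttCCTCTTCTTTTTgtcact
Rps27a: cggatcttcCTTTCCgatccgccatcgtgg
Rpl22: tgcgtagtgcgCCCCCCTCCCTTTCTgcct
Rpl22l1: ccggttccgagttgcgtatttcgcacgctc
Rpl3l: tagctctgtcatttgacctctggtgcctgg
On mm9 these stretches are chr7:25669645-25669674 on the plus strand for Rps19, chr17:24857186-24857215 on the plus strand for Rps2, chr11:29447841-29447870 on the minus strand for Rps27a and chr4:151699952-151699981 on the plus strand for Rpl22. They are chr3:28704348-28704377 for Rpl22l1 and chr17:24864764-24864793 for Rpl3l, both on the plus strand. Rps19 and Rps2, which were higher in NM-R, and Rps27a, which was lower, all carry the run. An annotated start can lie some bases from the start in use, and a transcript without the letters in this stretch may still have the element.

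The comparison of lsNM-R with ssNM-R asked whether spleen size goes with a difference. With limma, 0 of the 36 genes were called higher (background 0%) and 0 lower (background 0%), and the smallest adjusted p among them was 0.551. At an unadjusted p under 0.05, 3 genes were lower in lsNM-R (background 3.55%) and 0 higher. By DESeq2 on the recovered reads 0 of the 36 passed, beside a background of 0.534% of rows, 8 were lower in lsNM-R at an unadjusted p under 0.05 (background 3.48%) and 0 higher, and the smallest adjusted p was 0.32. By edgeR 0 passed, 3 were lower at an unadjusted p under 0.05 (background 3.84%) and 0 higher, and the smallest adjusted p was 0.565.

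The values nevertheless leaned 1 way. The lsNM-R mean was lower in 34 of the 36 genes, the exceptions being Rpl22l1 and Rpl3l, with a median log2 fold change of -0.19, while 48.0% of all rows lay below 0 with a median of 0.01. All lsNM-Rs were below all ssNM-Rs in 14 genes (background 6.23%). The 36 genes share the same 6 libraries, so they are not independent of each other. The summed level of 6 granulocyte markers was 24083 to 32175 in ssNM-R and 32306 to 41955 in lsNM-R, without overlap. Their median log2 fold change was 0.46, and 2 of the 6 had a lower lsNM-R mean. All 8 B cell markers had a higher lsNM-R mean (median 0.34), though their sums overlapped, as did the sums of the other lists. A lower lsNM-R mean was found in 1 of 8 T cell markers (median 0.29), 2 of 6 red pulp macrophage markers (median 0.11) and 3 of 4 stromal markers (median -0.11). It was found in 6 of 8 erythroid markers (median -0.10). By limma 0 markers of these lists passed. At an unadjusted p under 0.05, 3 granulocyte, 1 B cell and 1 T cell marker were higher, and 1 granulocyte and 1 macrophage marker lower. No marker was at 0 in a whole group. The part of these cells in the lean was not tested. The genes with the smallest p were Rpl27, Rps14, Rpl36al, Rps10 and Rpl28. For Rpl27, whose values are given above, the lsNM-R mean was 0.82 times the ssNM-R mean (log2 fold change -0.29 ± 0.12, SE, limma adjusted p = 0.551).

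Rps14 encodes a protein of the small subunit, and loss of a copy of the gene underlies the anaemia of a myelodysplastic syndrome. Rps14 had 11050.5, 10694 and 9821 normalized counts in ssNM-R 2, 3 and 6. In lsNM-R 1, 4 and 5 it had 9749.8, 7635 and 8037 (log2 fold change -0.32 ± 0.138, SE, limma adjusted p = 0.559). The lsNM-Rs were all lower, though lsNM-R 1 was close to ssNM-R 6. Rps10, a further gene of the Diamond-Blackfan list, had 9087, 8096 and 8854 in ssNM-R 2, 3 and 6 and 7504, 7379 and 6858 in lsNM-R 1, 4 and 5 (log2 fold change -0.26 ± 0.122, SE, limma adjusted p = 0.579). Rpl28 had 8692, 8086 and 6608 in ssNM-R 2, 3 and 6 and 7094, 6019.8 and 5573 in lsNM-R 1, 4 and 5, with overlap through ssNM-R 6 (log2 fold change -0.32 ± 0.153, SE, limma adjusted p = 0.583).

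Read depth is unevenly spread over the cohorts, with 2 of 3 ssNM-Rs in the lower class and 2 of 3 lsNM-Rs in the higher, so the cohorts were also set side by side within each class. In the lower class (2 ssNM-Rs, 1 lsNM-R) 30 of the 36 genes had a lower lsNM-R mean, with a median difference of -0.10 on the log2 scale, and in the higher class (1 ssNM-R, 2 lsNM-Rs) 35 did, with a median of -0.25. The median over all rows was 0 in both. In 20 genes every lsNM-R lay below every ssNM-R within both classes (background 14.1%). With depth class as a term in limma the median of the 36 genes was -0.16.

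**Figure D4:**
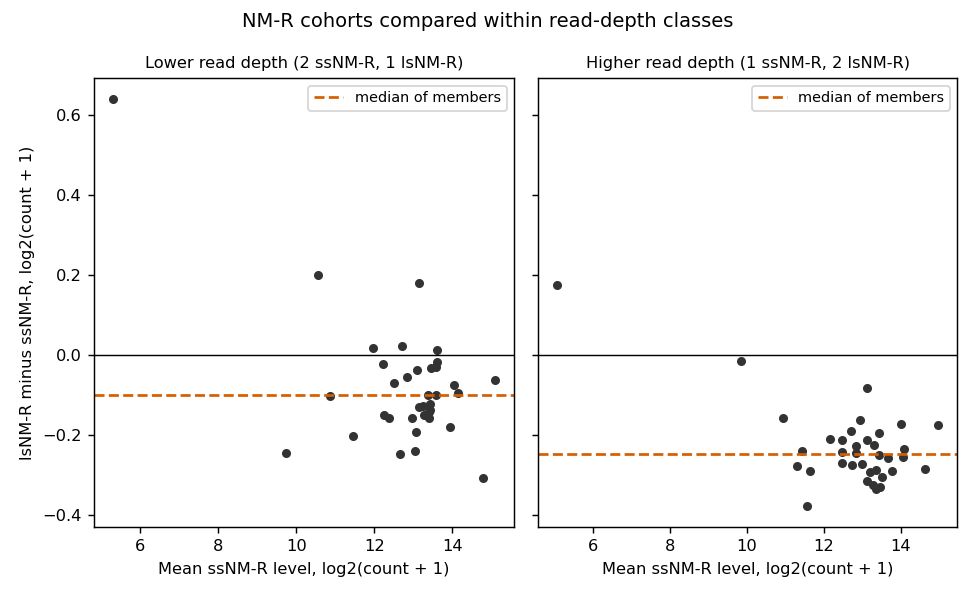
Difference between lsNM-R and ssNM-R means of log2(normalized count + 1) against the ssNM-R mean, 1 point per ribosomal protein gene, in the libraries of lower (left) and higher (right) read depth. The dashed median lies at -0.10 on the left and at -0.25 on the right, and most points are below 0 in both.

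Some genes also differed in level between the depth classes. Rps28 had 5577, 5032 and 4749.9 normalized counts in the lower-depth ssNM-R 2, ssNM-R 3 and lsNM-R 1, but 3041, 2471 and 2212 in the higher-depth ssNM-R 6, lsNM-R 4 and lsNM-R 5. Rps21, whose values are given above, showed the same separation by class, with a difference of -0.74 on the log2 scale, against -1.001 for Rps28 and -0.54 for Rpl37, a zinc-binding protein of the large subunit. The limma fit for depth class also held the 3 group means, so its estimates are not the differences between class means given above. In that fit, 0 of all 12946 rows passed an adjusted p of 0.05 between the classes (Rps28: unadjusted p = 5.5e-05, adjusted p = 0.0962). Of the 36 genes, 7 were lower in the higher-depth class at an unadjusted p under 0.05 (background 8.44%). In the other direction Rpl22l1 was higher in the higher-depth class at an unadjusted p = 0.0324.

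These 3 genes are the members with a coding length of at most 300 bases. The other 86 rows of that length that averaged at least 100 normalized counts had a median class difference of -0.04, and the 20 members of 300 to 500 bases ranged from -0.46 to 0.47 with a median of -0.12. Over the 36 genes, Spearman's rho between coding length and class difference was 0.08. The labels name no batch that matches the classes, and what sets them apart was not tested.

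**Figure D5:**
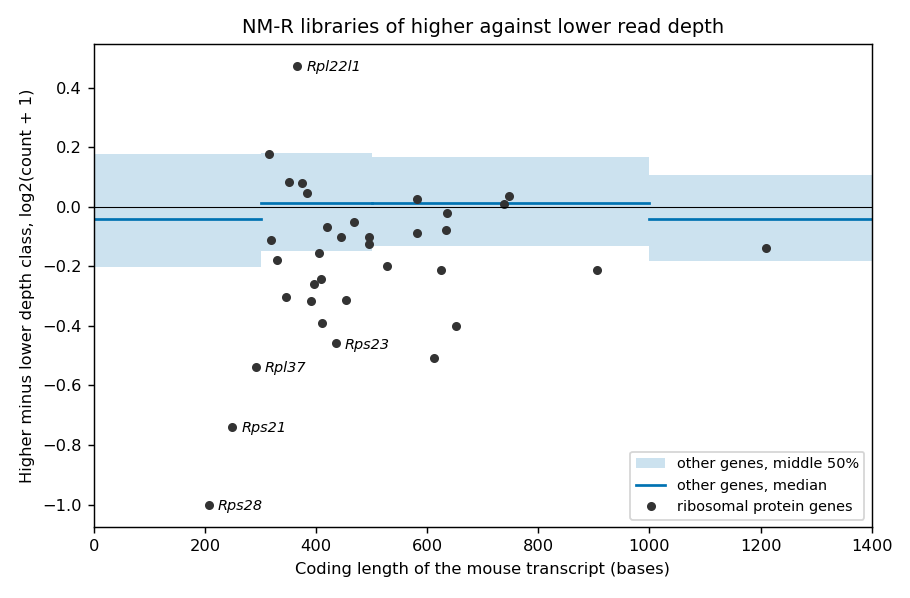
Mean log2(normalized count + 1) of the 3 higher-depth minus the 3 lower-depth NM-R libraries against the coding length of the mouse transcript, 1 point per ribosomal protein gene (Rpl3l, with a mean under 100, is left out). Lines and bands give the median and middle 50% of other genes in each length range. Rps28, Rps21 and Rpl37, the shortest, lie at -1.001, -0.74 and -0.54.

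Genes around the ribosome were counted from fixed lists. The background for the species comparison is again 39.7% of rows higher and 38.8% lower, or 78.5% in all. Of 47 genes of ribosome biogenesis 34 have a row, of which 17 were higher and 4 lower in NM-R, or 61.8% in all (median log2 fold change 0.26), and 0 passed between the cohorts. Nolc1, which escorts small nucleolar ribonucleoproteins, had 1041 to 1336 normalized counts in mice and 2838 to 3692 in NM-Rs (log2 fold change 1.43 ± 0.112, SE, limma adjusted p = 1.29e-06). Mdn1, the large ATPase that strips assembly factors from the large subunit precursor, had 2444 to 2862 in mice and 305 to 712 in NM-Rs (log2 fold change -2.37 ± 0.176, SE, limma adjusted p = 8.63e-07).

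Of 22 other mRNAs known for a pyrimidine run at their start 10 have a row, with 5 higher and 2 lower, or 70% against the 78.5% of all rows, and a median of 0.32. Between the cohorts, all 10 of them had a lower lsNM-R mean, with a median of -0.18, and 0 passed. Of 19 regulators of ribosomal protein synthesis 13 have a row, with 5 higher and 4 lower in NM-R, or 69.2% in all. Among them Larp1, which holds back mRNAs with the run, had 3130.3 to 3248 in mice and 3814 to 6006 in NM-Rs (log2 fold change 0.64 ± 0.149, SE, limma adjusted p = 0.00264), and Mtor had 1139 to 1488 and 886 to 1165 (log2 fold change -0.32 ± 0.12, SE, limma adjusted p = 0.0304).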

How the data were processed

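The data are RNA-seq libraries of 9 spleens, 3 each from mice, ssNM-Rs and lsNM-Rs. The authors aligned reads with STAR 2.5.3a to mm9 or the NM-R genome, counted them with HTSeq 0.10.0, named NM-R genes after mouse genes and divided by DESeq2 size factors, so the deposited signal is reads per gene over 1 size factor per library, not divided by length. The labels and the methods of the study differ on the library kit and instrument, and the annotation and strand setting are not given in the sources used here. A fold between species includes any difference in counted length.

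All values were whole multiples of 1 step per library, which gave whole reads in 100% of them (tolerance 0.01 reads). The depths, summed over all rows, were 7815326 to 18387599 reads, and the floor was 3 reads per library. On log2(value + 1), limma 3.58.1 (R 4.3.3) fitted 3 group means over 9 spleens with a trended variance and 2-sided tests, adjusted over 12946 rows. The fit was tested on simulated data in which set changes were placed between the NM-R cohorts alone. These changes were larger than the median cohort difference of the 36 genes, and no species difference was simulated. Alternatives included edgeR 4.0.16 and DESeq2 1.42.0 on the recovered reads. Copies were exact matches of 100-base windows in mm9, of the GENCODE vM1 transcript with the longest coding sequence. The members named by values follow a rule: the 6 highest and 6 lowest between species, the 5 smallest p between cohorts, stalk and other selected genes, paralogues with parents, and the 3 extremes per kb at each end. Rpl27a, Rpl34 and Rpl37, and the genes named from the lists, were chosen after their values were seen. The rule and lists were chosen with earlier results of these data known. Replicate numbers shared between groups did not pair the samples. P-values measure the spread between these animals. The values of a few single genes are not reported here, and 2 of the 36 members are left out of the plots by gene, while all counts and medians include them.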

Additional observations from a re-analysis of the deposited data

How the results depend on the processing

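Of 233 alternative values of 12 results, 216 stayed within 1.5 times the reported count or within the spread between replicates, and 17 moved. The values below are called members unless stated. For both cohorts against mice (10 higher, 9 lower), equal upper quartiles gave 16 higher, quantile normalization 15 lower, and the 19 members with at least 50% of windows without a second copy 6 higher. Their median log2 fold change, given without a test, changed sign from 0.12 to -0.0417 with quantile normalization and to -0.11 over those 19 members, over which the ratio of the share of counts was 0.874 in place of 1.07. Without Rps12 (added after seeing the data) that ratio was 0.985. For ssNM-R (12 and 5), quantile normalization gave 12 lower and the 19 members 7 higher and 2 lower. For lsNM-R (10 and 10), they gave 16 lower, and 6 higher and 6 lower. The median share of copied windows was 64.5% with 50-base windows and 68.2% over coding windows (added after seeing the data), against 44.7%. Leaving out each spleen in turn gave 10 to 12 higher and 5 to 10 lower for both cohorts, with medians of 0.02 to 0.21, 10 to 14 and 4 to 6 for ssNM-R, 8 to 10 and 8 to 15 for lsNM-R, 0 and 0 between the cohorts, with medians of -0.25 to -0.15, and share ratios of 1.01 to 1.12. Of the 19 called members, 10 higher and 5 lower kept their call in each leave-one-out fit and under the 3 other scalings. In mice Rpl3l was at or under the floor of 3 reads per library, and Rps12 rests on 17 reads.

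The replicate numbers shared by groups do not pair the samples: the correlations of deviations were -0.003, -0.01 and 0.03. With the replicate number as a term in the fit, fewer members were called lower for both cohorts and for lsNM-R against mice. Of the lsNM-Rs, only lsNM-R 1 shares its number with a mouse, mouse 1. The lsNM-R difference from mice in that fit thus rests on this pair alone, and it enters the mean of both cohorts. The counts of calls are therefore not given, and no conclusion is drawn from them.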
